A study of Arabidopsis thaliana with 12 samples.

Results

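The 10 genes WRKY18 (AT4G31800), WRKY40 (AT1G80840), WRKY60 (AT2G25000), WRKY33 (AT2G38470), WRKY53 (AT4G23810), WRKY70 (AT3G56400), WRKY46 (AT2G46400), WRKY63 (AT1G66600), WRKY6 (AT1G62300) and WRKY22 (AT4G01250) are described here across ABA treatment and loss of the nucleoporin NUP85 in Arabidopsis seedlings. They were chosen by gene identifier, not by their levels, as WRKY factors with known roles in abscisic acid (ABA) signalling or defence, and are 10 of the 33602 genes counted. RNA was sequenced from whole 7-day-old seedlings of Col-0 wild type and of nup85-1, a single T-DNA insertion line in the Col-0 background. Seedlings of both genotypes were kept for 3 h in liquid half-strength MS medium, either alone (mock) or with 50 µM ABA, and each of the 4 groups had 3 libraries. The labels name the mutant only as nup85, and the study's account of its sequencing results gives the allele.

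WRKY factors are a plant family of transcription factors named for a conserved WRKYGQK stretch in their DNA-binding domain, which binds the W-box, a site with the core TTGAC. WRKY18, WRKY40 and WRKY60 form a related group whose proteins bind one another and regulate ABA-responsive genes and basal defence, with WRKY40 known as a repressor. WRKY33 is phosphorylated by the immune MAP kinases and activates camalexin synthesis, and WRKY22 acts downstream of the flagellin receptor cascade. WRKY70, WRKY46 and WRKY53 are linked to salicylic acid signalling, and WRKY53 and WRKY6 also to leaf senescence. WRKY63 is known from ABA and drought responses of guard cells and seedlings, and WRKY6 represses the phosphate exporter gene PHO1.

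Each library held from 6616931 to 29798437 counted reads, with medians of 11509063 in Col-0 mock, 27692679 in Col-0 ABA, 10541053 in nup85-1 mock and 14541880 in nup85-1 ABA. Levels are given as CPM, counts relative to library size, scaled by TMM factors over all 12 libraries. NUP85 (AT4G32910) itself had 31.1, 28.7 and 16.0 CPM in Col-0 mock and 40.5, 41.7 and 29.4 CPM in Col-0 ABA replicates 1, 2 and 3. In the libraries labelled nup85-1 it had 3.52, 1.72 and 27.5 CPM under mock and 3.21, 1.99 and 17.0 CPM after ABA. The third library labelled nup85-1 mock thus goes against its label and the third labelled nup85-1 ABA lies between the genotypes, so every genotype named is the one on the label, and results are given with all 3 replicates and with replicates 1 and 2. The summed level of 3 green shoot markers was lower after ABA, at 12300 to 16300 against 19300 to 26200 CPM in Col-0 and 6810 to 17500 against 21600 to 25900 CPM in nup85-1. The summed level of 4 root markers was likewise 36.1 to 42.0 against 53.4 to 72.6 CPM in Col-0. Of these, SCR and SHR were lower in every Col-0 ABA library than in any mock library, while CASP1 and COBL9 overlapped between treatments. Among the green shoot markers RBCS1A and LHB1B1 also overlapped in Col-0. The part of these shifts in the WRKY values was not tested. The 3 seed storage markers summed to 54.0 CPM in the third library labelled nup85-1 mock (CRA1 45.7 and CRU3 8.25 CPM), the same library in which NUP85 goes against the label. They summed to 8.70 CPM in Col-0 mock replicate 3 and to under 1 CPM in the other 10 libraries, with SESA3 at 0 in all 12, and their part in the values of these 2 libraries was not tested. The 2 flower markers summed to at most 2.09 CPM. Nothing in the labels says that replicates came from separate cultures, so p-values measure only the spread between these libraries, which may be technical. In whole seedlings, fewer cells that express a gene and less RNA per cell cannot be told apart.

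The promoters of WRKY40, WRKY33 and WRKY22 are printed because these 3 genes had the most similar levels over the 12 libraries. Each run is the 250 bases before the annotated start, read 5′ to 3′ on the gene's strand from the RefSeq TAIR10.1 genome, with capitals marking every match to TTGAC, the W-box core, or to ACGTG, an ABA-responsive core, on either strand.
WRKY40 promoter (chr1:30383311-30383560, plus strand, TAIR10.1): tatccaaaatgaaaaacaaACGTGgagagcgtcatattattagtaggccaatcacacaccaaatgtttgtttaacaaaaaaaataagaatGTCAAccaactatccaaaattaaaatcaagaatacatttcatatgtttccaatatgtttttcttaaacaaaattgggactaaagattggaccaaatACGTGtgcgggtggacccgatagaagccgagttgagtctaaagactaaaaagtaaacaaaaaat
WRKY33 promoter (chr2:16107985-16108234, plus strand, TAIR10.1): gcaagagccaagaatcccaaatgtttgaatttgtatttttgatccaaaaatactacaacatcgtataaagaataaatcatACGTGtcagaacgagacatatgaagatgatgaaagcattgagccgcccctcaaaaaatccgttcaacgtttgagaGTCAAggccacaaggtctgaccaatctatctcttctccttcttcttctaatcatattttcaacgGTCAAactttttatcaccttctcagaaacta
WRKY22 promoter (chr4:524250-524499, minus strand, TAIR10.1): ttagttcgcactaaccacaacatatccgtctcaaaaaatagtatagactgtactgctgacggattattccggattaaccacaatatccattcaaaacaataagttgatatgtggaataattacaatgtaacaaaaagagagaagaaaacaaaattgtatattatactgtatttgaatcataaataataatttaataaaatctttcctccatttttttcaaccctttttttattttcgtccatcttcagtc

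The W-box core TTGAC was searched on both strands from 250 bases before to 50 bases after the annotated start. It occurred in 7 of the 10 genes, WRKY40, WRKY60, WRKY33, WRKY53, WRKY70, WRKY46 and WRKY6, and in 50.5% of 27443 windows of protein-coding genes. TTGACC, which contains this core, occurred in 2 genes (WRKY33 and WRKY53) against 14.2% of all windows, and TTGACT, which also contains it, in WRKY33 alone against 21.8%. ACGTG, the core of the ABA-responsive element bound by ABA-activated bZIP factors, began 231 and 64 bases before the start of WRKY40 and 170 bases before that of WRKY33, with no match in the other 8 genes and in 26.7% of all windows. CACGTG, the G-box, which contains ACGTG, was in 0 of the 10 windows and in 7.68% of all windows. The window of WRKY22 held neither core. WRKY60 had both of its matches at or after the start, and the second is shown with 12 bases on either side.
WRKY60 (chr2:10629666-10629694, plus strand, TAIR10.1): accttctcataaTTGACaagttattacac

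Of the 10 genes, 3 share their position with an annotated gene on the opposite strand. These are WRKY40 (with AT1G80850), WRKY33 (with AT2G38480 and AT2G08965, the latter not analysed here) and WRKY53 (with AT4G23800), and whether the counting used strand is not given in the sources used here, so their counts are uncertain. AT1G80850 had 5.18 to 18.6 CPM over the 12 libraries, and WRKY40 was 0.0415 to 27.3 of it. In Col-0 mock AT1G80850 had 12.3, 7.18 and 18.6 CPM, above WRKY40 in each library. AT2G38480 had 2.40 to 6.86 CPM, and WRKY33 was 2.0 to 56.1 of it. AT4G23800 had 32.5 to 142 CPM, far above WRKY53, whose level was 0.0351 to 0.302 of it.

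Divided by exon length, the mean levels in Col-0 mock were ordered WRKY33 (13.3 CPM per kb), WRKY70 (10.6), WRKY6 (8.41), WRKY60 (7.13), WRKY18 (3.97), WRKY22 (2.83), WRKY53 (2.39), WRKY40 (2.20), WRKY46 (1.48) and WRKY63 (0.238 CPM per kb). Under mock the first 4 overlapped between libraries, and WRKY63 lay below all the others in every library. After ABA the order in Col-0 was WRKY33 (61.1 CPM per kb), WRKY40 (48.9), WRKY6 (27.0), WRKY70 (18.8), WRKY22 (18.2), WRKY18 (7.78), WRKY46 (4.04), WRKY53 (2.99), WRKY60 (1.38) and WRKY63 (1.24 CPM per kb). Neighbours in this second order overlapped between libraries except WRKY22 with WRKY18 and WRKY53 with WRKY60. WRKY40 went from the eighth place to the second and WRKY60 from the fourth to the ninth. In nup85-1 after ABA, WRKY40 (81.6 CPM per kb) and WRKY33 (81.4 CPM per kb) led, followed by WRKY22 (36.3 CPM per kb).

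**Figure D1:**
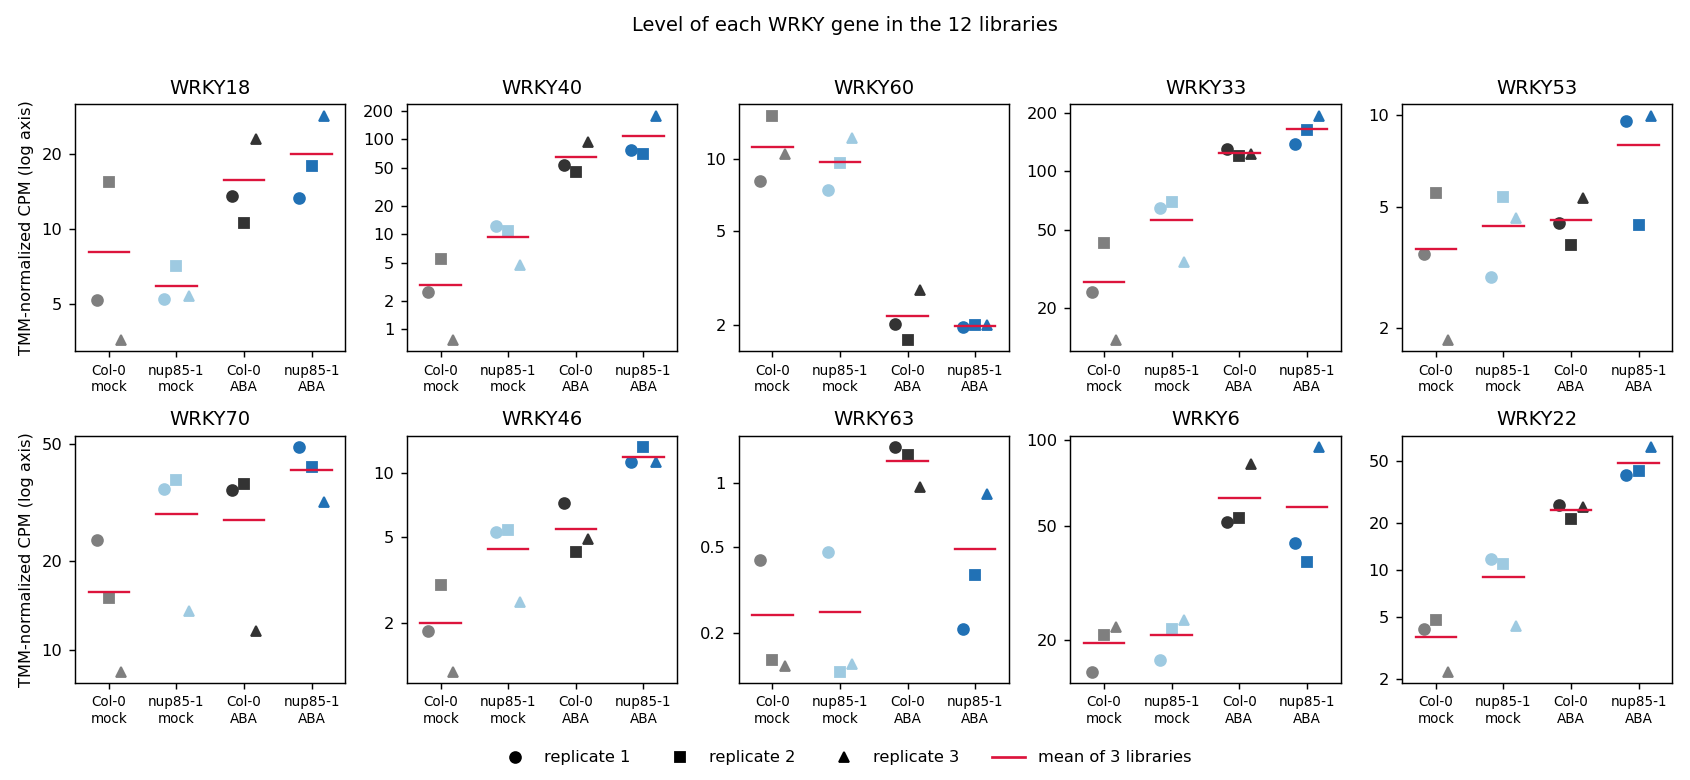
TMM-normalized CPM (log axis, 1 scale per gene) of each WRKY gene in the 12 libraries, with the group on the horizontal axis, the replicate number as the symbol and the group mean as a red bar. WRKY40 spans 0.772 to 5.54 CPM in Col-0 mock and 45.4 to 94.6 CPM in Col-0 ABA, while WRKY60 is at 8.06 to 15.3 CPM and 1.73 to 2.81 CPM.

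The comparison of ABA with mock asks which of these regulators respond to the hormone at the transcript level within 3 h. In Col-0, WRKY40, WRKY22, WRKY63, WRKY33, WRKY6 and WRKY46 rose and WRKY60 fell, while WRKY18, WRKY70 and WRKY53 did not pass the test. All 10 genes passed the filter on low counts and 7 were called at an adjusted p under 0.05 by edgeR's quasi-likelihood test, beside 31.4% of 20062 genes tested (16.5% higher and 14.9% lower). WRKY63 passed this filter only through its ABA libraries, so its rise is a description, and 6 of the other 9 genes were called, 5 higher and 1 lower. With the study's 4-fold limit 4 of these 9 were called, beside 7.49% of all genes. The median log2 fold change was 1.49 over the 9 genes and -0.01 over all genes. With replicates 1 and 2 alone 7 of the 9 were called, 6 higher and 1 lower, beside 47.2% of 20003 genes (24% higher and 23.2% lower). Upper-quartile scaling moved the median of all genes to -0.15 and the share of higher genes among all calls from 52.5% to 41.2%, and changed no call of the 10 genes.

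WRKY40, the ABA-linked repressor of the trio, had 2.45, 5.54 and 0.772 CPM in Col-0 mock replicates 1, 2 and 3, and 54.3, 45.4 and 94.6 CPM after ABA. Its mock libraries all lay far below its ABA libraries, and the mock replicates themselves differed by more than those of any other member. Its mock level is uncertain, since the gene on the opposite strand was higher in these 3 libraries. The log2 fold change was 4.56, or 23.6-fold (SE 0.67, edgeR adjusted p = 0.00416), the largest of the 10, and 3.72 with replicates 1 and 2 (SE 0.33, edgeR adjusted p = 0.000462). WRKY60, its close relative, moved the other way. It had 8.06, 15.3 and 10.5 CPM under mock and 2.01, 1.73 and 2.81 CPM after ABA, without overlap. It fell by 2.36 on the log2 scale (SE 0.32, edgeR adjusted p = 0.00347), and by 2.60 with replicates 1 and 2. WRKY18, the remaining member of the trio, had 5.17, 15.4 and 3.58 CPM under mock against 13.7, 10.6 and 23.0 CPM after ABA. The second mock library exceeded 2 of the 3 ABA libraries, and the log2 fold change of 1.00 was not called (SE 0.57, edgeR adjusted p = 0.216). Without that mock library it was 1.84 (edgeR adjusted p = 0.0306), and with replicates 1 and 2 it was 0.30 (edgeR adjusted p = 0.624).

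WRKY33, the camalexin regulator, had 24.1, 43.1 and 13.6 CPM under mock and 130, 120 and 122 CPM after ABA. The ABA libraries lay close together and the mock libraries did not. Its log2 fold change was 2.20, or 4.61-fold (SE 0.39, edgeR adjusted p = 0.00797). WRKY22, of the flagellin pathway, rose from 4.21, 4.79 and 2.25 CPM to 25.9, 21.1 and 25.2 CPM. The 2.70 on the log2 scale, or 6.50-fold (SE 0.30), had the smallest adjusted p of the 10 genes (edgeR, 0.00181). WRKY6, the phosphate and senescence regulator, rose from 15.5, 20.8 and 22.2 CPM to 51.6, 53.4 and 82.6 CPM, by 1.67 on the log2 scale (SE 0.25, edgeR adjusted p = 0.00434). Neither gene overlapped between treatments.

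Among the genes linked to salicylic acid only WRKY46 passed the test in Col-0 with all 3 replicates. WRKY46 had 1.84, 2.99 and 1.19 CPM under mock, from 17 to 21 reads a library, and 7.20, 4.28 and 4.92 CPM after ABA. The log2 fold change was 1.49 (SE 0.39, edgeR adjusted p = 0.0285), and the call was lost when any of Col-0 ABA replicate 1 or 2 or Col-0 mock replicate 1 or 3 was left out (edgeR adjusted p from 0.0522 to 0.0994). WRKY70, the regulator placed between salicylic and jasmonic acid signalling, had 23.6, 15.0 and 8.42 CPM under mock and 34.8, 36.5 and 11.5 CPM after ABA. Replicate 3 was the lowest of its group in both treatments, and the groups overlapped. The log2 fold change was 0.81 with all 3 replicates (SE 0.52, edgeR adjusted p = 0.270) and 0.86 with replicates 1 and 2 (SE 0.21, edgeR adjusted p = 0.0186). WRKY53, the senescence regulator, had 3.50, 5.54 and 1.82 CPM under mock and 4.44, 3.75 and 5.36 CPM after ABA. Its groups overlapped, and the log2 fold change was 0.35 (SE 0.40, edgeR adjusted p = 0.535) and, with replicates 1 and 2, -0.10.

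WRKY63 was the least abundant, with 5, 1 and 2 reads in the Col-0 mock libraries and 41, 18 and 26 reads after ABA, or 0.140 to 0.438 and 0.962 to 1.47 CPM. Only the ABA libraries carried it past the filter on low counts, so a rise was built into its being tested. Its log2 fold change of 2.30 (SE 0.51, edgeR adjusted p = 0.0163) is given as a description. The call was lost with DESeq2 on replicates 1 and 2 (adjusted p = 0.0853) and by edgeR when Col-0 ABA replicate 1 or 2 or Col-0 mock replicate 2 or 3 was left out (edgeR adjusted p from 0.0509 to 0.0603). Over the other 9 genes, 5 had all ABA libraries above all mock libraries and 1 had all below, beside 26.3% and 23.9% of all genes tested (50.2% in either direction).

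In the libraries labelled nup85-1 the same question gave the following values. WRKY40, WRKY22, WRKY18, WRKY33, WRKY6 and WRKY46 rose and WRKY60 fell. WRKY63 did not pass the filter on low counts here, and of the 9 tested genes 7 were called (6 higher and 1 lower), beside 29.2% of 20001 genes (15.4% higher and 13.8% lower). The 4-fold limit left 3, beside 6.75% of all genes. The median log2 fold change was 1.48 over the 9 genes and 0.01 over all genes. With replicates 1 and 2 the count was again 7, beside 51.5% of 19936 genes.

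WRKY40 had 12.3, 10.8 and 4.81 CPM in the mock libraries labelled nup85-1 and 76.5, 70.7 and 177 CPM after ABA. Here too the third mock library was the lowest and the third ABA library the highest. The log2 fold change was 3.54, or 11.6-fold (SE 0.51, edgeR adjusted p = 0.00395), and 2.64, or 6.24-fold, with replicates 1 and 2. WRKY60 had 7.41, 9.63 and 12.3 CPM under mock and 1.95, 1.99 and 2.01 CPM after ABA. Its ABA libraries were nearly equal, and it fell by 2.31 on the log2 scale (SE 0.25, edgeR adjusted p = 0.00167). WRKY18, which was not called in Col-0, rose from 5.23, 7.13 and 5.38 CPM to 13.3, 18.0 and 28.6 CPM without overlap. Its log2 fold change was 1.75 (SE 0.32, edgeR adjusted p = 0.00810) and 1.34 with replicates 1 and 2 (edgeR adjusted p = 0.00169). Its difference from the response in Col-0 is a separate test, given with the interaction term.

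WRKY33 rose from 64.7, 70.1 and 34.2 CPM to 138, 164 and 193 CPM, by 1.54 on the log2 scale (SE 0.31, edgeR adjusted p = 0.0111). WRKY22 rose from 11.7, 11.0 and 4.38 CPM to 40.5, 42.9 and 61.1 CPM, by 2.42 (SE 0.39, edgeR adjusted p = 0.00547). In both genes the third mock library was the lowest and the third ABA library the highest. WRKY46 rose from 5.32, 5.41 and 2.51 CPM to 11.2, 13.1 and 11.2 CPM, by 1.42 (SE 0.31, edgeR adjusted p = 0.0160). WRKY6 rose from 17.0, 21.9 and 23.5 CPM to 43.5, 37.6 and 94.4 CPM, by 1.48 (SE 0.37, edgeR adjusted p = 0.0242), and its call was lost without any one of the 3 mock libraries (edgeR adjusted p from 0.0564 to 0.0897). WRKY70 had 35.2, 37.7 and 13.6 CPM under mock and 48.8, 41.8 and 31.7 CPM after ABA, with a log2 fold change of 0.49 (SE 0.38, edgeR adjusted p = 0.372). WRKY53 had 2.95, 5.41 and 4.59 CPM under mock and 9.56, 4.35 and 9.98 CPM after ABA, with a log2 fold change of 0.88 (SE 0.39, edgeR adjusted p = 0.130). Neither WRKY70 nor WRKY53 was separated between treatments. WRKY53 was called only when the second ABA library was left out (1.18, edgeR adjusted p = 0.0437). WRKY63 had 5, 1 and 2 reads under mock and 3, 6 and 19 reads after ABA, of which the third library held most.

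**Figure D2:**
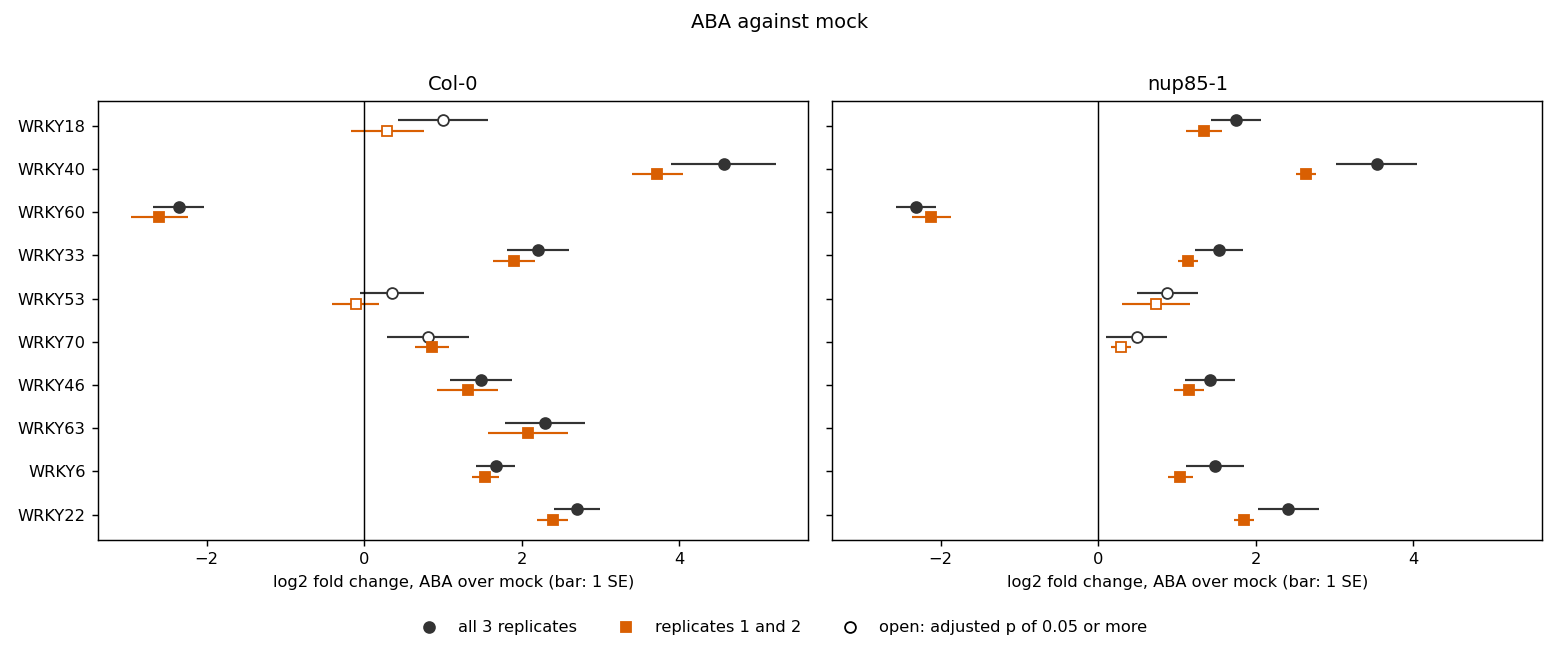
Log2 fold change of ABA over mock for each WRKY gene in Col-0 and in nup85-1, from all 3 replicates (circles) and from replicates 1 and 2 (squares), with bars of 1 SE and open symbols at an adjusted p of 0.05 or more. WRKY40 lies farthest to the right in both genotypes (4.56 and 3.54) and WRKY60 is on the left in both (-2.36 and -2.31); WRKY63 was not tested in nup85-1.

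The comparison of the genotypes asks whether loss of NUP85 alters these regulators. Under mock, the 9 tested genes (WRKY63 did not pass the filter) gave 0 calls with all 3 replicates, beside 0 of 19606 genes (0%). At an unadjusted p under 0.05 by edgeR there were 3 of the 9 genes, WRKY40, WRKY46 and WRKY22, and 1010 of all genes, and DESeq2 called 0 of the members and 36 of all genes. The log2 differences of nup85-1 from Col-0 had a median of 0.87 over the 9 genes and -0.01 over all genes. No gene of the 9 had its libraries separated by label, beside 11.2% of all genes tested (6.33% higher and 4.86% lower).

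The mock values show how replicate 3 enters. In Col-0 and in nup85-1 the third mock library was the lowest of its group for WRKY40, WRKY33, WRKY22, WRKY46 and WRKY70. WRKY40 had a log2 difference of 1.74 (SE 0.68, edgeR adjusted p = 0.937), WRKY22 of 1.27 (SE 0.45), WRKY46 of 1.17 (SE 0.45) and WRKY33 of 1.07 (SE 0.45). WRKY70 followed at 0.87 (SE 0.49), and WRKY53 (0.28), WRKY6 (0.09), WRKY60 (-0.20) and WRKY18 (-0.42) were near 0 or below. Within each replicate number WRKY40, WRKY22, WRKY46, WRKY33 and WRKY70 were higher in the library labelled nup85-1 than in the one labelled Col-0, in 3 of 3 numbers. So was WRKY6, by less. The share of all genes with this pattern was not counted, and number 3 includes the nup85-1 mock library in which NUP85 goes against its label. Same-numbered libraries of the 2 genotypes deviated together from their group means, and a fit with the number as a block called WRKY33 (1.14, SE 0.16, edgeR adjusted p = 0.0415), beside 0.311% of all genes. The same fit gave WRKY22 1.22 (edgeR adjusted p = 0.0597), WRKY40 1.88 (edgeR adjusted p = 0.0628), WRKY70 0.84 (edgeR adjusted p = 0.0905) and WRKY46 1.16 (edgeR adjusted p = 0.114), which were not called. With replicates 1 and 2, where NUP85 followed the labels, edgeR called 0 of the 9 genes beside 0.0155% of all genes, with log2 differences of 1.60 for WRKY40, 1.34 for WRKY22, 1.19 for WRKY46, 1.01 for WRKY33 and 0.89 for WRKY70.

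After ABA all 10 genes were tested between the genotypes, and again 0 were called with all 3 replicates, beside 0 of 20270 genes (0%). By edgeR 4 genes had an unadjusted p under 0.05, WRKY22, WRKY46, WRKY33 and WRKY63, as had 995 of all genes, and DESeq2 called 2 of the members and 88 of all genes. WRKY63 entered this test only through its Col-0 libraries and is left out of the counts that follow. The median log2 difference was 0.57 over the other 9 genes and 0 over all genes. WRKY33, WRKY46 and WRKY22 were higher in every library labelled nup85-1 than in any labelled Col-0, and 0 of the 9 were lower in every one, beside 6.06% and 5.20% of all genes.

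WRKY22 gave 40.5, 42.9 and 61.1 CPM in the libraries labelled nup85-1 against 25.9, 21.1 and 25.2 CPM in Col-0, a log2 difference of 1.00 (SE 0.19, edgeR adjusted p = 0.472). This difference was called with replicates 1 and 2 (0.83, edgeR adjusted p = 0.0274, beside 3.14% of 19869 genes), with the replicate block (0.99, edgeR adjusted p = 0.0284, beside 1.38% of all genes) and with DESeq2 (1.00, adjusted p = 0.0110). WRKY46 had a log2 difference of 1.11 (SE 0.23, edgeR adjusted p = 0.623), which DESeq2 called (1.10, adjusted p = 0.0284) and the block did not (1.12, edgeR adjusted p = 0.0576). For WRKY40 the 3 libraries labelled nup85-1 had 76.5, 70.7 and 177 CPM against 54.3, 45.4 and 94.6 CPM, higher within each number but overlapping between them. How many of all genes were higher within each number was not counted. The edgeR values of WRKY40 follow. The log2 difference of WRKY40 was 0.74 (SE 0.43, edgeR adjusted p = 1) and, with the block, 0.69 (SE 0.11, edgeR adjusted p = 0.0441). WRKY33 (0.42), WRKY53 (0.82), WRKY70 (0.57) and WRKY18 (0.34) had positive and WRKY6 (-0.10) and WRKY60 (-0.14) slightly negative differences, none of them called with all 3 replicates or with the block.

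WRKY63 was the exception in direction. It had 41, 18 and 26 reads in Col-0 ABA replicates 1, 2 and 3 and 3, 6 and 19 reads in those labelled nup85-1, or 1.47, 1.35 and 0.962 against 0.209, 0.373 and 0.886 CPM. The third library labelled nup85-1, in which NUP85 itself was at 17.0 CPM, was close to the lowest Col-0 library and far above the other 2. With all 3 replicates the log2 difference was -1.30 (SE 0.52, edgeR adjusted p = 1), with the block -1.28 (edgeR adjusted p = 0.263), and with replicates 1 and 2 -2.23 (SE 0.40, edgeR adjusted p = 0.0429). The gene passed the filter on low counts only through the Col-0 ABA libraries, with 3 and 6 reads in the first 2 libraries labelled nup85-1, so these values are a description and its call supports nothing.

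**Figure D3:**
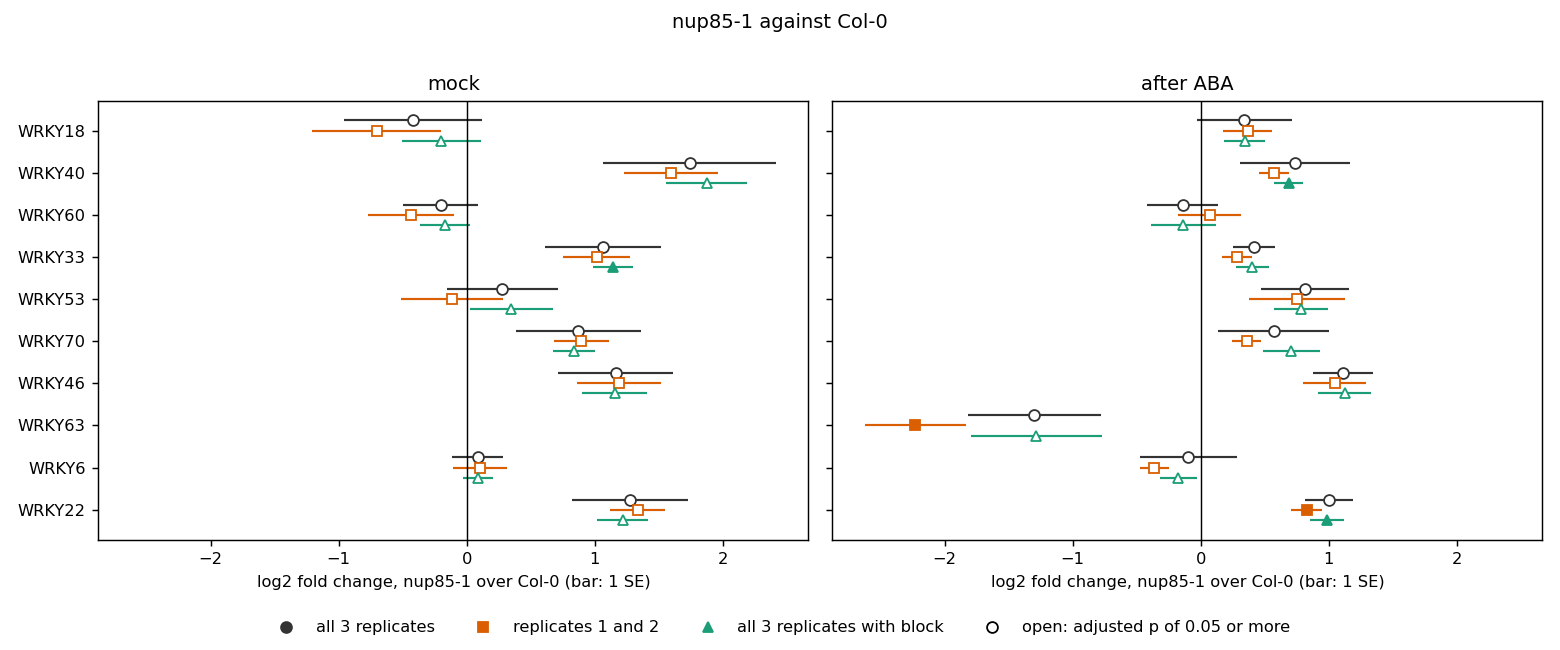
Log2 difference of nup85-1 from Col-0, by the labels, for each WRKY gene under mock and after ABA, from all 3 replicates, replicates 1 and 2 and all 3 replicates with the replicate block, with bars of 1 SE and filled symbols at an adjusted p under 0.05. Under mock WRKY33 (1.14) is filled with the block, and after ABA WRKY22 with the block (0.99) and with replicates 1 and 2 (0.83), WRKY40 with the block (0.69) and WRKY63 with replicates 1 and 2 (-2.23), a gene that passed the filter only through its Col-0 ABA libraries.

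Whether the ABA response itself differed between the genotypes was tested with an interaction term over all 12 libraries. No gene was called among the 10, nor among all 20574 (0%), while 0 of the members and 309 of all genes had an unadjusted p under 0.05 by edgeR, and DESeq2 called 1 gene in all and 0 members. The estimates, nup85-1 response minus Col-0 response, were -1.01 for WRKY40 (SE 0.86), -0.65 for WRKY33 (SE 0.52), -1.30 for WRKY63 (SE 0.98) and 0.76 for WRKY18 (SE 0.71). The others lay between -0.30 for WRKY70 and 0.54 for WRKY53, and every adjusted p was 1. With replicates 1 and 2, 4 members and 1903 of 20492 genes had an unadjusted p under 0.05 by edgeR. One of them, WRKY63 (-2.23), was tested only through its Col-0 ABA libraries, so a smaller response in nup85-1 was built into its being tested. The others were WRKY40 (-1.07, SE 0.36, edgeR adjusted p = 0.459), WRKY33 (-0.74) and WRKY22 (-0.52), each with a smaller response in the libraries labelled nup85-1. The response of WRKY18, called in nup85-1 and not in Col-0, is therefore not shown to differ between them.

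Some of the 10 genes rose and fell together from library to library within a group. Col-0 mock replicate 3 was the lowest of its group for 8 of the 10 genes and Col-0 mock replicate 2 the highest for 7. Among the ABA libraries labelled nup85-1, replicate 3 was the highest for 8, and Col-0 ABA replicate 2 was the lowest of its group for 7. After subtracting group means of log2(CPM + 0.5), the correlation of 2 genes over the 12 libraries was 0.8 or more in 6 of 45 pairs and below 0 in 8, with a median of 0.37 and a lowest value of -0.66. WRKY33 with WRKY22 (r = 0.89), WRKY40 with WRKY33 (0.88), WRKY33 with WRKY46 (0.87), WRKY18 with WRKY40 (0.86), WRKY40 with WRKY22 (0.86) and WRKY46 with WRKY22 (0.83) were these pairs. WRKY70 had r = 0.58 with WRKY46, 0.52 with WRKY22, 0.48 with WRKY33, 0.34 with WRKY63 and 0.14 with WRKY40, but -0.65 with WRKY6 and -0.66 with WRKY60. These correlations are descriptions over libraries that share their group, number and depth, and have no test. The shares of all genes with such ranks or such correlations were not counted. The shared rises and falls are therefore not shown to be particular to these genes.

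**Figure D4:**
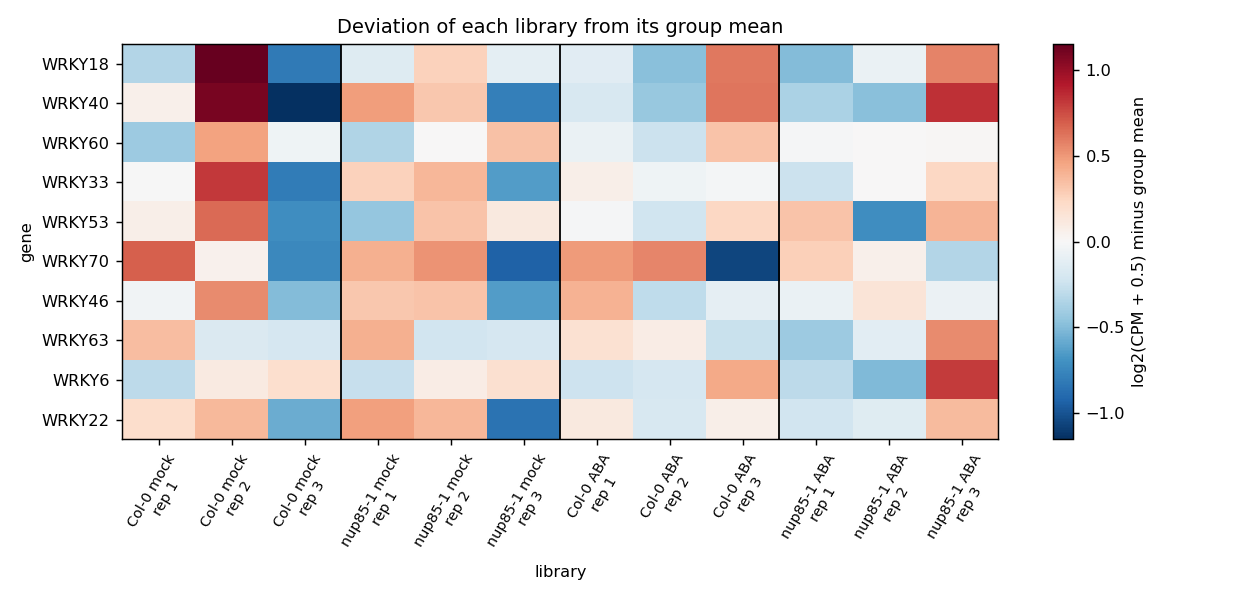
Deviation of log2(CPM + 0.5) from the group mean for each WRKY gene (rows) in the 12 libraries (columns), red above and blue below the mean. Col-0 mock replicate 3 is blue for most genes and is the lowest of its group for 8 of 10, and replicate 3 of nup85-1 ABA is the highest of its group for 8 of 10. The shares of all genes with these ranks were not counted.

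Over all 12 libraries, with the group differences kept, the genes most like a member were named by Pearson's r of log2(CPM + 0.5) among 19564 genes. The libraries fall into mock and ABA samples, so these values include the difference between treatments. WRKY40 was closest to AT1G76600 (r = 0.981), WRKY33 (0.980), WRKY22 (0.979), AT4G17950 (0.979) and ATCRT1 (0.979). For WRKY33 the closest were WRKY40 and CZF1, both at 0.980, then AT1G25400 (0.975), WRKY22 (0.975) and AT3G59080 (0.973). WRKY40 and WRKY33 thus stood in each other's lists and WRKY22 in both, while no list was made for WRKY22. WRKY60 was closest to AT1G56670 (0.985), AT4G24790 (0.984), iqd17 (0.983), AT4G39280 (0.979) and MCM4 (0.979), a subunit of the replicative helicase. WRKY70 resembled other genes less closely, with GID1C (0.950), a gibberellin receptor, TWD1 (0.942), PUR ALPHA-1 (0.939), AT4G33960 (0.924) and BEH4 (0.922).

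Genes that act with these factors were counted from lists, whose calls stand beside 31.4% of all genes called in Col-0 and 29.2% in nup85-1. The counts and medians include genes that passed the filter on low counts only through the treatment where they were higher, which fixed their direction. Of 17 ABA genes known as targets or partners of WRKY factors, 15 were tested in Col-0, 9 rose and 3 fell (GUN5, PYL2 and PYL6), with a median log2 fold change of 2.01. Those with the smallest adjusted p were DREB2A (4.57, SE 0.43), a dehydration-response factor, the ABA kinase gene OST1 (2.05, SE 0.21), and the stress-inducible RD29A (4.69, SE 0.49) and COR47 (3.42, SE 0.50), with edgeR adjusted p from 0.00123 to 0.00414. In Col-0, RRTF1 (0 to 0.299 CPM under mock, 2.40 to 35.1 CPM after ABA) and MYB2 (0.211 to 1.14 and 1.73 to 3.44 CPM) were tested only through their ABA libraries. ABI5 (0.491 to 2.80 and 11.1 to 26.5 CPM), among the genes that rose, also needed its ABA libraries to pass the filter. PYL6 (0.842 to 16.0 and 0.185 to 0.375 CPM) was tested only through its mock libraries. In nup85-1, 9 of 15 rose and 2 fell (GUN5 and PYL6), with RRTF1 and JAZ8 tested only through ABA libraries and PYL6 only through mock libraries.

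The salicylic acid and camalexin genes, which WRKY70, WRKY46, WRKY53 and WRKY33 regulate in part, gave 5 calls in Col-0, where 1 of 17 rose and 4 fell and the median was 0.23. NPR3, a salicylic acid receptor gene, rose (1.16, SE 0.16), and ICS1, of salicylic acid synthesis (-1.47, SE 0.28), the camalexin enzyme gene CYP71A13 (-4.22, SE 1.13) and the basal defence gene PAD4 (-0.84, SE 0.23) fell, as did NPR4, with edgeR adjusted p from 0.00336 to 0.0339. CYP71A13 ranged from 2.39 to 68.9 CPM in Col-0 mock and from 0.962 to 2.19 CPM after ABA. Its fall was smaller with replicates 1 and 2 (-2.15 on the log2 scale, edgeR adjusted p = 0.0453). The replicate block lost the calls of CYP71A13 (edgeR adjusted p = 0.0768) and PAD4 (edgeR adjusted p = 0.0536). It newly called SARD1 (1.61, edgeR adjusted p = 0.0195) and PAD3 (0.87, edgeR adjusted p = 0.0235) higher. With the block 3 of 17 thus rose and 2 fell, beside 6401 of 20062 genes called. SARD1 (0.561 to 1.84 CPM under mock, 2.48 to 5.45 CPM after ABA) needed its ABA libraries to pass the filter on low counts. In nup85-1, NPR3, SARD1 and CYP81F2 rose, 3 of 16 tested, and ICS1, PBS3, NPR4 and CYP71A13 fell. Of 15 MAP kinase cascade and early immune genes, 4 rose and 1 fell in Col-0, with a median of 0.52. PHI-1 (4.71, SE 0.55), NHL10 (2.23, SE 0.36) and the co-receptor gene BAK1 (0.91, SE 0.20) rose, as did MPK6, and SIB2 (-1.30, SE 0.30), whose protein partners WRKY33, fell, with edgeR adjusted p from 0.00213 to 0.0262. In nup85-1, PHI-1, NHL10, BAK1, MKK2 and MKS1 rose and SIB2 fell. NHL10 was tested there only through its ABA libraries. Of the 3 tested phosphate and senescence genes, PHO1, the target that WRKY6 represses, fell (-0.92, SE 0.18, edgeR adjusted p = 0.0111), SEN1 rose (3.75, SE 0.89, edgeR adjusted p = 0.0202) and SAG13 had 0.96 (SE 0.82, edgeR adjusted p = 0.405).

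Beyond the 10 genes, 58 others carry a WRKY symbol, and 44 of them were tested in Col-0. Of these 14 rose and 4 fell, with a median of 0.51 beside -0.01 over all genes, and in nup85-1 14 rose and 5 fell (WRKY13, WRKY27, WRKY47, WRKY65 and WRKY72). The largest rises were those of WRKY51 (2.82), WRKY45 (2.38), WRKY25 (2.37), WRKY75 (2.26) and WRKY38 (2.25), and the genes that fell were WRKY54 (-2.21), a close relative of WRKY70, WRKY72 (-2.09), WRKY65 (-1.37) and WRKY27 (-1.15). WRKY38 (0.351 to 0.748 CPM under mock, 0.825 to 4.22 CPM after ABA) passed the filter on low counts only through its ABA libraries. WRKY54 (1.82 to 4.47 and 0.538 to 0.825 CPM) passed it only through its mock libraries, as did WRKY13 in nup85-1. Their directions were built into their being tested, so their values are a description, though the counts above include them. The calls of WRKY45 and WRKY38 were lost with replicates 1 and 2 (1.52, edgeR adjusted p = 0.0524, and 1.31, edgeR adjusted p = 0.11) and with the replicate block (edgeR adjusted p = 0.0697 and 0.0755). With replicates 1 and 2, 47.2% of 20003 genes were called for ABA in Col-0 (24% higher and 23.2% lower). Beside these shares the counts were 9 higher and 5 lower of 15 tested in the ABA list. They were 3 and 4 of 17 in the salicylic acid and camalexin list and 8 and 3 of 15 in the MAP kinase and immune list. The phosphate and senescence list had 1 and 1 of 3, and the other WRKY genes 11 and 7 of 44.

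Between genotypes, 0 genes of any of these lists were called under mock or after ABA with all 3 replicates. With replicates 1 and 2 after ABA, edgeR called DREB1A higher and ABI5 lower in the ABA list, and PR1, PR2, PAD3 and CYP71A12 lower in the salicylic acid and camalexin list, beside 3.14% of 19869 genes. After ABA, PR1 had 0 to 0.14 CPM and PR2 had 0.14 to 1.54 CPM in the libraries labelled nup85-1. Both were tested only through their Col-0 libraries, which fixed their direction. In the same fit FLS2, the flagellin receptor gene, and WRKY39 and WRKY48 were called higher, and SAG13, WRKY45 and WRKY75 lower. The replicate block on all 3 replicates called SAG13 lower (-1.52, edgeR adjusted p = 0.0231) and WRKY39 higher (0.82, edgeR adjusted p = 0.0231) after ABA. The genes of this paragraph, and those named above for the nup85-1 lists, were chosen after their values were seen. So were the genes named for the Col-0 lists beyond those with the smallest adjusted p.

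**Figure D5:**
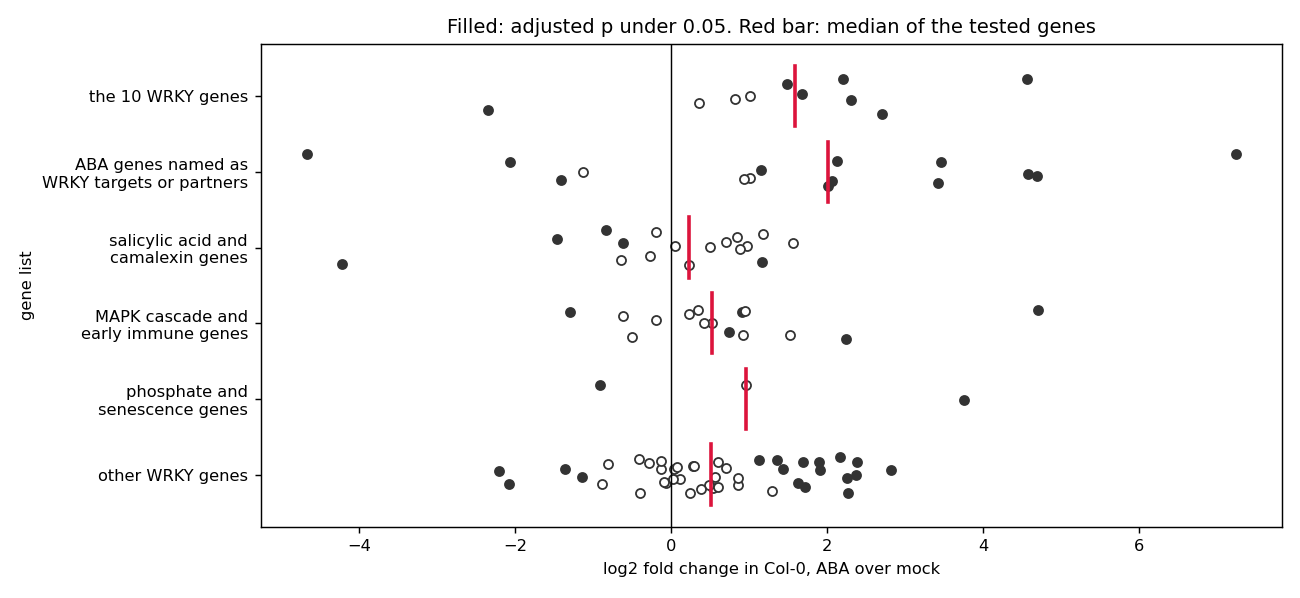
Log2 fold change of ABA over mock in Col-0 for the tested genes of the 10 WRKY genes, the 4 lists and the other WRKY genes, 1 point a gene, filled at an adjusted p under 0.05, with the list's median as a red bar. The medians are 1.58 for the 10 WRKY genes (1.49 without WRKY63), 2.01 for the ABA genes, 0.23 for salicylic acid and camalexin, 0.52 for MAP kinase and immune genes, 0.96 for phosphate and senescence and 0.51 for the other WRKY genes.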

How the data were processed

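Libraries were grouped by the titles in the labels. Per the study's methods and the submitters' processing notes, the authors checked reads with FastQC, trimmed them, mapped them to TAIR10 with TopHat2 and counted them on genes with featureCounts. They deposited raw counts, without normalization, for 33602 genes. Versions and strand settings are not given in the sources used here.

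For each comparison the 6 libraries of its 2 groups were fitted with edgeR 4.0.16 in R 4.3.3, after TMM normalization and filterByExpr, with the quasi-likelihood test and Benjamini-Hochberg adjustment over all tested genes. Calls were made at an adjusted p under 0.05. The SE is the fold change divided by the square root of F. The interaction was fitted over 12 libraries. The scripts were tested on simulated data. Gene positions, exon lengths and promoters came from RefSeq TAIR10.1 by gene identifier. Between genotypes, libraries with the same number deviated together from their group means over 20574 genes (r = 0.55, 0.52 and 0.77 under mock, 0.67, 0.59 and 0.78 after ABA for numbers 1, 2 and 3), so the numbers were taken to pair these libraries. Numbers 1 and 2 also deviated together (r = 0.32 to 0.51). DESeq2 1.42.0, the study's tool, was an alternative, with other scalings, filters and library sets.

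Named by rule were the 10 genes, NUP85 and up to 4 genes of each list with the smallest adjusted p in Col-0. So were up to 5 of the other WRKY genes in each direction and the 5 genes most like WRKY40, WRKY33, WRKY70 and WRKY60. Further genes of the lists were named after their values were seen. Members and lists were chosen with earlier results of these data known.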

Additional observations from a re-analysis of the deposited data

How the results depend on the processing

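Of 765 refits of single WRKY genes under the alternatives, 710 kept their direction and their side of the threshold, 15 were newly called, 12 lost the call and 28 changed sign, none of the 28 called in either fit. Other scalings, no filter on low counts and leaving out plastid and mitochondrial genes changed no count of calls by more than 1.5 times and no call of a member. The cause of each change below was not tested.

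The number of genes called for ABA was 6299 in Col-0, from 3484 to 6848 with 1 library left out, and 5838 in nup85-1, from 3182 to 7718, or 10269 with replicates 1 and 2. Between genotypes under mock, 3 genes were called with replicates 1 and 2, 61 with the replicate block (1 of them a member), 36 with DESeq2 and 176 with DESeq2 on replicates 1 and 2 (1 of them a member, WRKY33). After ABA, 624 (3.14% of all genes) were called with replicates 1 and 2, 279 (1.38%) with the replicate block, 88 with DESeq2, 1028 with DESeq2 on replicates 1 and 2 and 3 in 1 fit over 12 libraries, with 2, 2, 2, 3 and 0 members among them. The first of these member counts includes WRKY63, which was tested only through its Col-0 libraries and whose call supports nothing. For the interaction, 2 genes were called with replicates 1 and 2, 1 with DESeq2 and 69 with DESeq2 on replicates 1 and 2, and 0 members. Leaving out any 1 library gave 0 calls between genotypes and in the interaction, and 5 to 7 members in Col-0 and 6 to 8 in nup85-1 for ABA. The counts in Col-0 include WRKY63 where it was called. For the ABA responses same-numbered libraries deviated together weakly or not at all (r from -0.08 to 0.30, and from -0.35 to 0.29 between different numbers). Number 3 had r = 0.25 between treatments in each genotype. With the other numbers it had -0.35 to -0.05 in Col-0 and -0.28 to -0.14 in nup85-1. The replicate block gave 6401 genes in Col-0 and 6097 in nup85-1 and changed no call of a member.

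The log2 values that changed sign with replicates 1 and 2 were WRKY53 for ABA in Col-0 (-0.10, also with DESeq2), WRKY53 between genotypes under mock (-0.11, also with DESeq2) and WRKY60 between genotypes after ABA (0.071, and 0.081 with DESeq2). With 1 library left out, the ranges that crossed 0 between genotypes were -0.78 to 0.43 for WRKY18, -0.40 to 0.075 for WRKY60, -0.058 to 0.70 for WRKY53 and -0.056 to 0.21 for WRKY6 under mock, and -0.27 to 0.082 for WRKY60 and -0.61 to 0.15 for WRKY6 after ABA. In the interaction they were -0.083 to 1.15 for WRKY18, -0.22 to 0.29 for WRKY60, -0.74 to 0.010 for WRKY70, -0.42 to 0.24 for WRKY46, -0.71 to 0.079 for WRKY6 and -0.62 to 0.018 for WRKY22. At 1 to 5 reads in the mock libraries, depth limits WRKY63.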
